A study of Mus musculus with 10 samples.

Results

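The cytosolic ribosomal protein genes encode the proteins that, with ribosomal RNA, make up the large and the small subunit of the ribosome outside mitochondria. They were taken as all rows of the count table annotated as protein coding whose symbols begin with Rpl or Rps followed by a digit or the letter p, without the kinases named Rps6k and without pseudogenes. This gave 85 genes of 49671 gene rows, 52 of the large subunit (Rpl) and 33 of the small subunit (Rps) by name, on 19 chromosomes. A filter on low counts kept 81 of them, 48 Rpl and 33 Rps genes, among 11247 genes tested. The 4 others were Rpl3l (0 counts in all libraries), Rpl10l and Rpl39l (1 count each over all libraries) and Rpl24 (0 to 2 counts per library; 47.0% of its annotated exon bases are shared with the overlapping gene Gm28037, so its reads may have been set aside as ambiguous). One member, Rps19bp1, matches by symbol alone; it encodes a protein that binds Rps19 rather than a subunit of the ribosome. The 278 ribosomal protein pseudogene rows that were left out held 0.0219% to 0.0405% of the gene counts of a library, and 93 of them had no count anywhere.

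The cells were bone marrow-derived mast cells, that is, mast cells grown out of marrow in interleukin 3 (IL-3), from wild-type C57BL/6 mice. The labels give an age or culture time of 6 to 8 weeks. All groups carried IL-3, at 5 ng/mL by the growth protocol and 10 ng/mL by the sample source. The 6 groups were SCF plus TGF-β at 1 ng/mL (2 libraries), SCF plus TGF-β at 10 ng/mL (2 libraries), SCF at 100 ng/mL (2 libraries), TGF-β without SCF at 1 ng/mL (1 library), TGF-β without SCF at 10 ng/mL (1 library) and IL-3 alone (2 libraries). SCF is stem cell factor, the ligand of the receptor KIT, and TGF-β is transforming growth factor beta; stimulation lasted 72 h. An SCF dose for the combinations and a time for IL-3 alone are missing from the labels. Whether replicates are separate cultures is not stated either, so a p-value speaks only to the spread among these 10 libraries.

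Each ribosome needs 1 copy of most of these proteins, and their mRNAs are among the most abundant of growing cells. Many begin with a run of pyrimidines, the 5′ terminal oligopyrimidine (TOP) tract, through which the kinase mTORC1 and the RNA-binding protein LARP1 control their translation and stability. Translation factors such as eEF1A and eEF2 share this tract. Sequencing of mRNA, as here, measures the level of these transcripts and not their translation or the number of ribosomes. In RNA of whole cultures, fewer cells of a type and less RNA per cell cannot be told apart.

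Promoters from RefSeq on GRCm38.p6 were matched by symbol for 65 of the 85 genes, with the first listed start taken for each gene. CTTTCC, a short pyrimidine run of the kind found at TOP starts, was searched on the sense strand from 50 bases before to 50 after the start and occurred in 29.2% of these 65 promoters and in 4.67% of all 27025. CTCTTTC, which can overlap it, occurred in 16.9% and in 1.33% in the same window. CCGGAAG, a motif of ETS-family factors, was searched on both strands from 250 bases before to 50 after the start and occurred in 36.9% and in 9.12%. TATAAA, the core of the TATA box, occurred within 50 bases of the start on the sense strand in 7.69% and in 3.69%. The stretches from 100 bases before to 20 bases after the start are given for 6 genes to which the results below return, with these motifs in capitals. They are Rps2, whose level differed most between groups, Rpl4, one of the most abundant members, and the pairs Rps27l with Rps27 and Rpl22l1 with Rpl22, whose balance shifted. They lie at chr17:24719963-24720082 (plus strand, Rps2), chr9:64173287-64173406 (plus, Rpl4), chr9:66945986-66946105 (plus, Rps27l), chr3:90213629-90213748 (minus, Rps27), chr3:28805408-28805527 (plus, Rpl22l1) and chr4:152325626-152325745 (plus, Rpl22).
Rps2: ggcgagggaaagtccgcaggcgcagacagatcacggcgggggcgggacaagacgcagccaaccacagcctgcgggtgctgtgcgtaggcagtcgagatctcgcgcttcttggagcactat
Rpl4: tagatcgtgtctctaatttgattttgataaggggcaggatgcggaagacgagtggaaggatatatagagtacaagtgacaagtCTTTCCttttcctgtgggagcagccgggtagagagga
Rps27l: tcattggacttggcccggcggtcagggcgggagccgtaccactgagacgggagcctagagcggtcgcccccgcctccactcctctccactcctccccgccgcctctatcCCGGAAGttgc
Rps27: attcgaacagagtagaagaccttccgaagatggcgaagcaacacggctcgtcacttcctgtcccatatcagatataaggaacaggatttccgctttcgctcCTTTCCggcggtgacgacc
Rpl22l1: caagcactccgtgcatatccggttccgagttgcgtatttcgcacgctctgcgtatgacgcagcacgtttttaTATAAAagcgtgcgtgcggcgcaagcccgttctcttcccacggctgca
Rpl22: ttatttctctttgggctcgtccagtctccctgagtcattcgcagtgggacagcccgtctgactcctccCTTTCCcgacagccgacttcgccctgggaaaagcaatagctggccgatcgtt
Within these 120 bases the Rpl4, Rps27 and Rpl22 stretches held CTTTCC, the Rps27l stretch held CCGGAAG, the Rpl22l1 stretch held TATAAA, and the Rps2 stretch held none of the 4. A match is a description of letters and not a shown binding site or start.

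Taken as a set, the ribosomal protein genes held a larger share of the gene counts in every library with SCF than in any library without it. They held 2.52% and 2.31% in SCF with 1 ng/mL TGF-β, 2.52% and 2.16% (replicate 2) in SCF with 10 ng/mL, and 2.57% and 2.26% in SCF. In cells without SCF they held 1.335% with 1 ng/mL TGF-β (95% Wilson interval 1.315% to 1.355%), 1.71% with 10 ng/mL (1.688% to 1.733%), and 1.82% and 1.49% in IL-3 alone. These intervals cover counting error only, since PCR copies of 1 molecule cannot be recognised in such reads. The mean share was 2.41% ± 0.216 in SCF and 1.66% ± 0.233 in IL-3 alone (SD, n = 2 each), a ratio of 1.46. Over the 6 libraries with SCF it was 2.39% ± 0.167, against 1.59% ± 0.217 over the 4 without (SD). Within the libraries with SCF the 3 groups overlapped, with means of 2.41% ± 0.151 with 1 ng/mL TGF-β, 2.34% ± 0.253 with 10 ng/mL and 2.41% ± 0.216 without TGF-β. In each of the 4 groups with 2 libraries, replicate 1 was the deeper and the one with the higher share. Of the libraries of TGF-β alone, that of 1 ng/mL is labelled replicate 2 and that of 10 ng/mL replicate 1. Dose and replicate number can thus not be told apart between them.

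**Figure D1:**
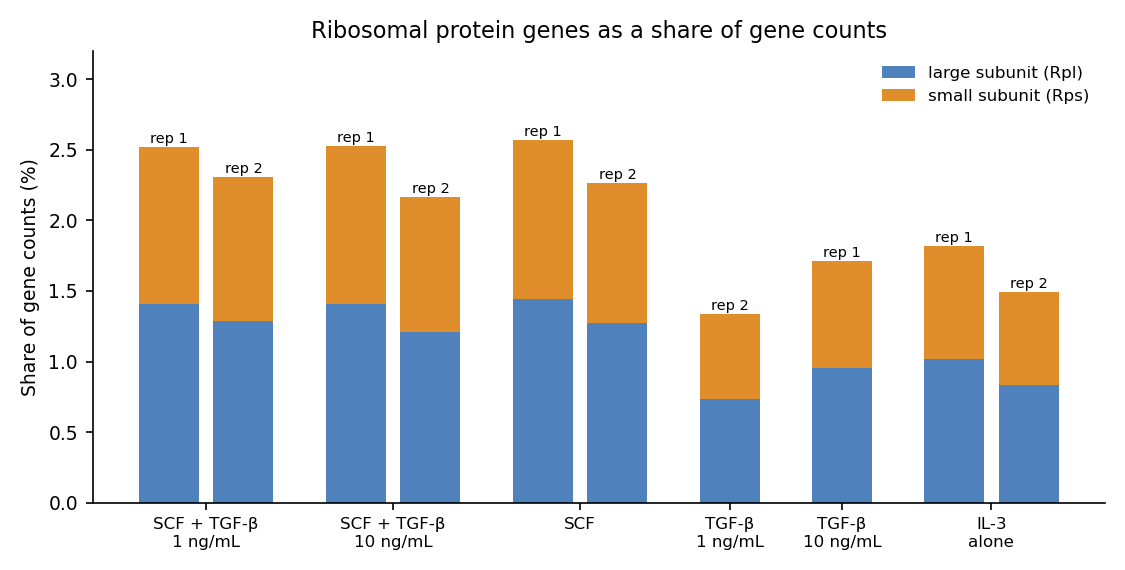
Share of the gene counts of each library held by ribosomal protein genes (vertical axis, percent), 1 bar per library, split into Rpl (blue) and Rps (orange) genes, by group. The 6 bars with SCF end between 2.16% and 2.57% and the 4 without SCF between 1.335% and 1.82%; Rpl genes make up a near-constant part of every bar.

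Both subunits took part equally: Rpl genes made up 55.3% to 56.4% of the ribosomal protein counts in all 10 libraries. Several technical measures moved with SCF too. Loci overlapping satellite repeats took 3.03% to 5.41% of gene counts with SCF and 5.86% to 14.3% without, and loci overlapping ribosomal RNA 10.98% to 13.4% and 13.1% to 15.8%. Reads that were not uniquely aligned made up 37.2% to 43.2% of counted reads with SCF and 42.7% to 55.6% without. Gene counts per library ranged from 1237382 to 2323916. The ratio of SCF over IL-3 alone was 1.33 with the satellite and ribosomal RNA loci taken out of the total, 1.32 against protein-coding counts only, and 1.80 against all counted reads. The mast cell markers Kit, Fcer1a, Ms4a2, Cpa3, Tpsb2, Cma1, Hdc and Gata2 were all detected and summed to 54440 to 90370 CPM (counts scaled to a common library size) with SCF and 53420 to 66930 CPM without. Single markers moved within that sum: Tpsb2, a tryptase, averaged 16670 CPM in SCF and 7952 CPM in IL-3 alone (1.07 ± 0.13, edgeR adjusted p = 0.000101), and Cpa3, a carboxypeptidase of the granules, 25130 and 15560 CPM (0.69 ± 0.12, adjusted p = 0.00139). In SCF plus TGF-β against TGF-β alone Cpa3 rose by 0.64 ± 0.10 and Kit had -0.34 ± 0.10 (edgeR adjusted p = 0.0216). With TGF-β added to SCF, 3 of the 8 markers were called lower at 1 ng/mL (2.75% of all genes) and 4 at 10 ng/mL (4.59%), and 0 higher. TGF-β alone against IL-3 alone gave 3 lower and 1 higher (2.12% and 1.36% of all genes). Cpa3 averaged 12560 and 10350 CPM in SCF with 1 and 10 ng/mL TGF-β. It measured 7174 and 7514 CPM in the libraries of TGF-β alone. Of other cell types, neutrophil markers summed to at most 0.842 CPM with SCF and 1.697 CPM without (Mpo, S100a8 and S100a9 at 0), fibroblast markers to at most 0.543 and 2.33 CPM, macrophage markers to 11.98 to 20.2 and 12.6 to 16.3 CPM, lymphocyte markers to 3.004 to 12.5 and 0 to 1.55 CPM (Cd3e and Cd4 at 0), erythroid markers to 5.97 to 16.8 and 6.32 to 24.1 CPM, and basophil markers to 591 to 702 and 458 to 660 CPM. Most of the basophil sum was Cd200r3 (578 to 681 CPM with SCF and 431 to 643 without), which was called higher in SCF plus TGF-β against TGF-β alone (0.44 ± 0.12). Mcpt8, a basophil protease, had 6.30 to 24.98 CPM with SCF and 0.518 to 6.99 without and was called higher in both comparisons that test SCF (adjusted p of 0.0449 against IL-3 alone and 0.00677 in the presence of TGF-β). Prss34, another, had 2.50 and 4.41 CPM in SCF and 13.99 and 15.4 CPM in IL-3 alone, where it was called lower with SCF (adjusted p = 0.0307). Among lymphocyte markers Ncr1 had 2.002 to 11.4 CPM with SCF and 0 to 0.849 without, and was called higher in SCF plus TGF-β against TGF-β alone (adjusted p = 0.0168). Their part in the results was not tested.

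Per kilobase of merged exon the tested members spanned a wide range: the 90th percentile lay 10.6-fold above the 10th. The highest mean level was that of Rplp1 (1246 CPM per kb), which encodes an acidic protein of the stalk that recruits translation factors. Rpl4, Rplp0 (the base of the stalk) and Rpl8 were also among the highest, with 561, 529 and 513 CPM per kb. At the other end stood Rpl13a with 7.32 CPM per kb, of whose exon bases 35.4% are shared with overlapping small RNA genes and Gm45713, and Rps19bp1 with 12.2, Rps15a with 29.6, Rps27rt with 31.4 and Rpl22l1 with 31.5 CPM per kb. The place of Rpl22l1 depended on the length used: per kilobase of principal transcript it had 113.6 CPM. By that length Rpl13a had 14.8, Rps19bp1 15.7, Rps27rt 31.4 and Rps15a 35.8 CPM per kb. Because members can share reads with pseudogene copies, and because counts do not tell strands apart as far as the protocol says, levels of single members carry that uncertainty.

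SCF was first compared with IL-3 alone, in the absence of TGF-β. With SCF, 45 of the 81 tested members rose and 0 fell (edgeR's quasi-likelihood test, Benjamini-Hochberg adjusted over all genes), where 9.17% of all 11247 genes were called in either direction and 5.71% were called higher. The median log2 fold change of the 81 members was 0.56, and that of all genes -0.02; 77 of the 81 lay above 0. Of the Rpl genes 29 rose (median 0.57) and of the Rps genes 16 (median 0.50). In 73 members (90.1%) both SCF libraries lay above both IL-3 libraries, which held for 26.2% of all genes. The count of 45 members called higher was also taken with each library left out in turn. This count rested on single libraries: it was 11 without SCF replicate 1, 27 without SCF replicate 2, 40 without IL-3 replicate 1 and 1 without IL-3 replicate 2, while the median stayed between 0.46 and 0.65. IL-3 replicate 2 had the smaller ribosomal protein share of its group and 9.27% of its counts in satellite loci, against 5.86% in replicate 1. Without the satellite and ribosomal RNA loci the fit again called 45 members.

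Among the small-subunit proteins, Rps19, the gene most often mutated in human Diamond-Blackfan anaemia, measured 340 and 306 CPM in SCF and 206 and 172 CPM in IL-3 alone. The libraries did not overlap, and the log2 fold change was 0.77 ± 0.15 (SE; adjusted p = 0.0043). Rps18 rose by 0.78 ± 0.14, and Rps3, which lines the mRNA entry channel, by 0.48 ± 0.14. Rps20 (0.61 ± 0.15), Rps25 (0.57 ± 0.14) and Rps26 (0.68 ± 0.15), which lies at the mRNA exit channel, rose as well. Rps6, the substrate of the S6 kinases, measured 219 and 185 CPM in SCF and 163 and 117 CPM in IL-3 alone, and its log2 fold change of 0.52 ± 0.17 missed the threshold (adjusted p = 0.0669).

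Among the large-subunit proteins, Rpl4 measured 1464 and 1398 CPM in SCF, against 942 and 793 CPM in IL-3 alone (0.72 ± 0.13, adjusted p = 0.00237). Rpl32 measured 494 and 408 CPM in SCF and 268.9 and 201 CPM in IL-3 alone, a log2 fold change of 0.94 ± 0.17. In both genes the lower SCF library stood well above the higher IL-3 library. The largest value belonged to Rpl13a, which was rarely counted: 27.0 and 17.7 CPM in SCF and 10.9 and 9.83 CPM in IL-3 alone (1.11 ± 0.33, adjusted p = 0.0427). Rpl5 and Rpl23, which can bind the p53 regulator MDM2 when free of ribosomes, rose by 0.62 ± 0.15 and 0.64 ± 0.14. Rpl11, which binds MDM2 together with Rpl5, had 0.32 ± 0.15 and was not called. Rpl38, a protein needed for translation of Hox mRNAs in mouse embryos, rose by 0.61 ± 0.16 and Rpl41, the shortest ribosomal protein, by 0.56 ± 0.13.

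A minority did not follow. Rplp1 measured 709.9 and 654 CPM in SCF, against 685 and 672 CPM in IL-3 alone, so that the groups overlapped (0.01 ± 0.13, adjusted p = 0.98). Its partner Rplp2 had 0.15 ± 0.15, whereas Rplp0, which holds both on the ribosome, rose by 0.56 ± 0.13. Rps27 measured 181 and 119 CPM in SCF and 176 and 160 CPM in IL-3 alone (-0.16 ± 0.19, adjusted p = 0.66). Rps9 measured 592 and 485 CPM in SCF and 466 and 493 CPM in IL-3 alone (0.17 ± 0.14); it was named after its values were seen. Rpl10, which joins the large subunit late in its assembly, had 0.30 ± 0.16 and was not called.

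The second comparison set cells with both factors, pooling the doses of TGF-β, against those with TGF-β and no SCF. It shares no library with the first. With SCF 60 of the 81 members rose and 0 fell, where 24.7% of all genes were called in either direction and 13.3% were called higher. The median log2 fold change of the members was 0.59, and that of all genes -0.01. Of the Rpl genes 37 rose, and of the Rps genes 23. All 4 libraries with SCF lay above both libraries without it in 70 members (86.4%), against 23.6% of all genes. The TGF-β side had 1 library for each dose, and the count was 23 without the library of 1 ng/mL TGF-β, which had the lowest ribosomal protein share (1.335%) and the highest satellite share (14.3%) of all. Leaving out any other library gave 55 to 61. Without the satellite and ribosomal RNA loci the fit called 61.

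The order of the members was similar in both comparisons. Across the 81 members the log2 fold changes had a Pearson r of 0.70 (0.80 without Rps2) and a Spearman rho of 0.74, given as a description, since members share libraries and depth. Of the members called, 44 were called in both comparisons, which is 97.8% of the 45 and 73.3% of the 60. Of all genes 4.65% were called higher in both, which is 81.5% of those called higher in the first and 34.9% of those called higher in the second. Only Rpl27a was called in the first and not in the second (0.63 ± 0.17 and 0.28 ± 0.15; the difference was not called). Neither comparison called 20 members, among them Rplp1, Rplp2, Rpl10, Rpl22, Rps9, Rps27 and Rps29. Taking all 10 libraries, those with SCF lay above those without in 60 members (74.1%), which held for 9.31% of all genes.

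**Figure D2:**
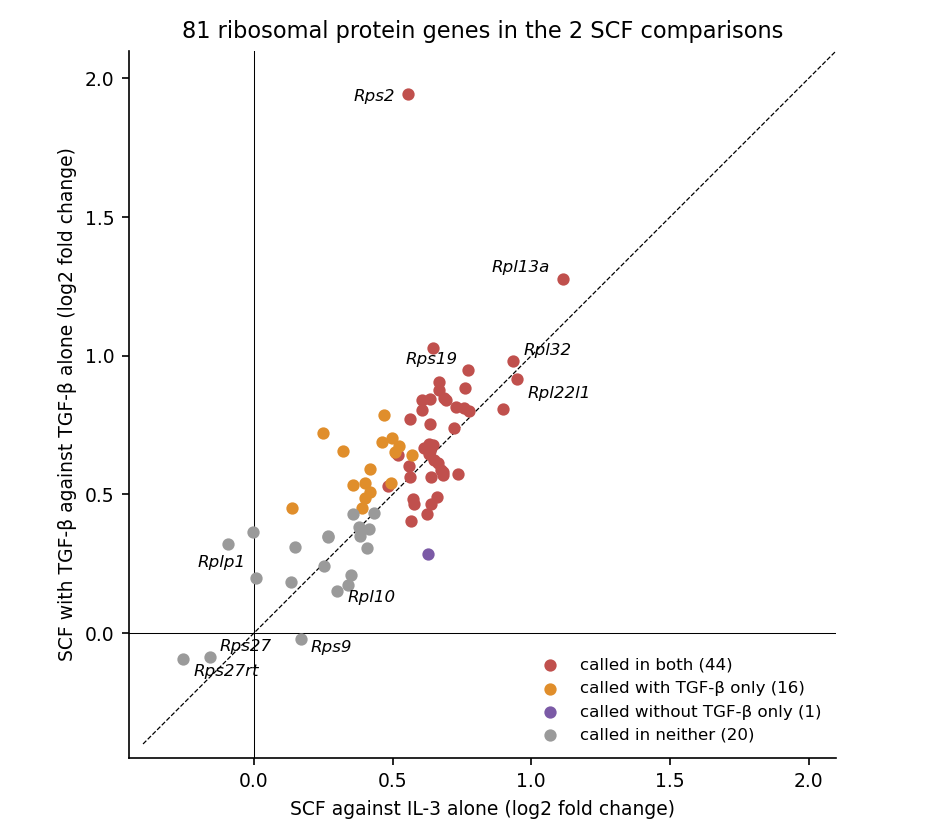
Log2 fold change of each of the 81 tested ribosomal protein genes with SCF against IL-3 alone (horizontal axis) and with SCF plus TGF-β against TGF-β alone (vertical axis); colours mark in which comparison a gene was called and the dashed line marks equal values. Most genes lie near the line between 0.3 and 1.0, Rps27, Rps27rt and Rps9 lie near 0, and Rps2 lies far above the line at 0.56 and 1.94.

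Values in the second comparison were often close to those in the first. Rpl32 measured 492 and 418 CPM in SCF with 1 ng/mL TGF-β and 477 and 383 CPM in SCF with 10 ng/mL, against 185 CPM with 1 ng/mL TGF-β and 272 CPM with 10 ng/mL (0.98 ± 0.15, adjusted p = 0.000216). No library with SCF came near those without. Rps19 rose by 0.95 ± 0.14, Rps20 by 0.84 ± 0.14, Rpl4 by 0.74 ± 0.12, Rpl41 by 0.60 ± 0.12, Rpl38 by 0.67 ± 0.15 and Rplp0 by 0.56 ± 0.12. Rps3 (0.53 ± 0.13), Rps26 (0.57 ± 0.13), Rps25 (0.40 ± 0.12), Rpl23 (0.47 ± 0.12) and Rpl5 (0.43 ± 0.14) rose too.

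Some members were called in the second comparison and not in the first. Rps6 rose by 0.68 ± 0.16, Rpl11 by 0.65 ± 0.14 and Rpl3, which lies near the peptidyl transferase centre, by 0.51 ± 0.13; in the first comparison their values were 0.52 ± 0.17, 0.32 ± 0.15 and 0.42 ± 0.15. Rps27a, made as a fusion with ubiquitin, rose by 0.45 ± 0.13 (0.14 ± 0.15 in the first). For none of these was the difference between the comparisons called. Rpl10 (0.15 ± 0.14), Rplp1 (0.20 ± 0.11), Rplp2 (0.31 ± 0.13), Rps27 (-0.09 ± 0.17) and Rps9 (-0.02 ± 0.12) were not called.

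**Figure D3:**
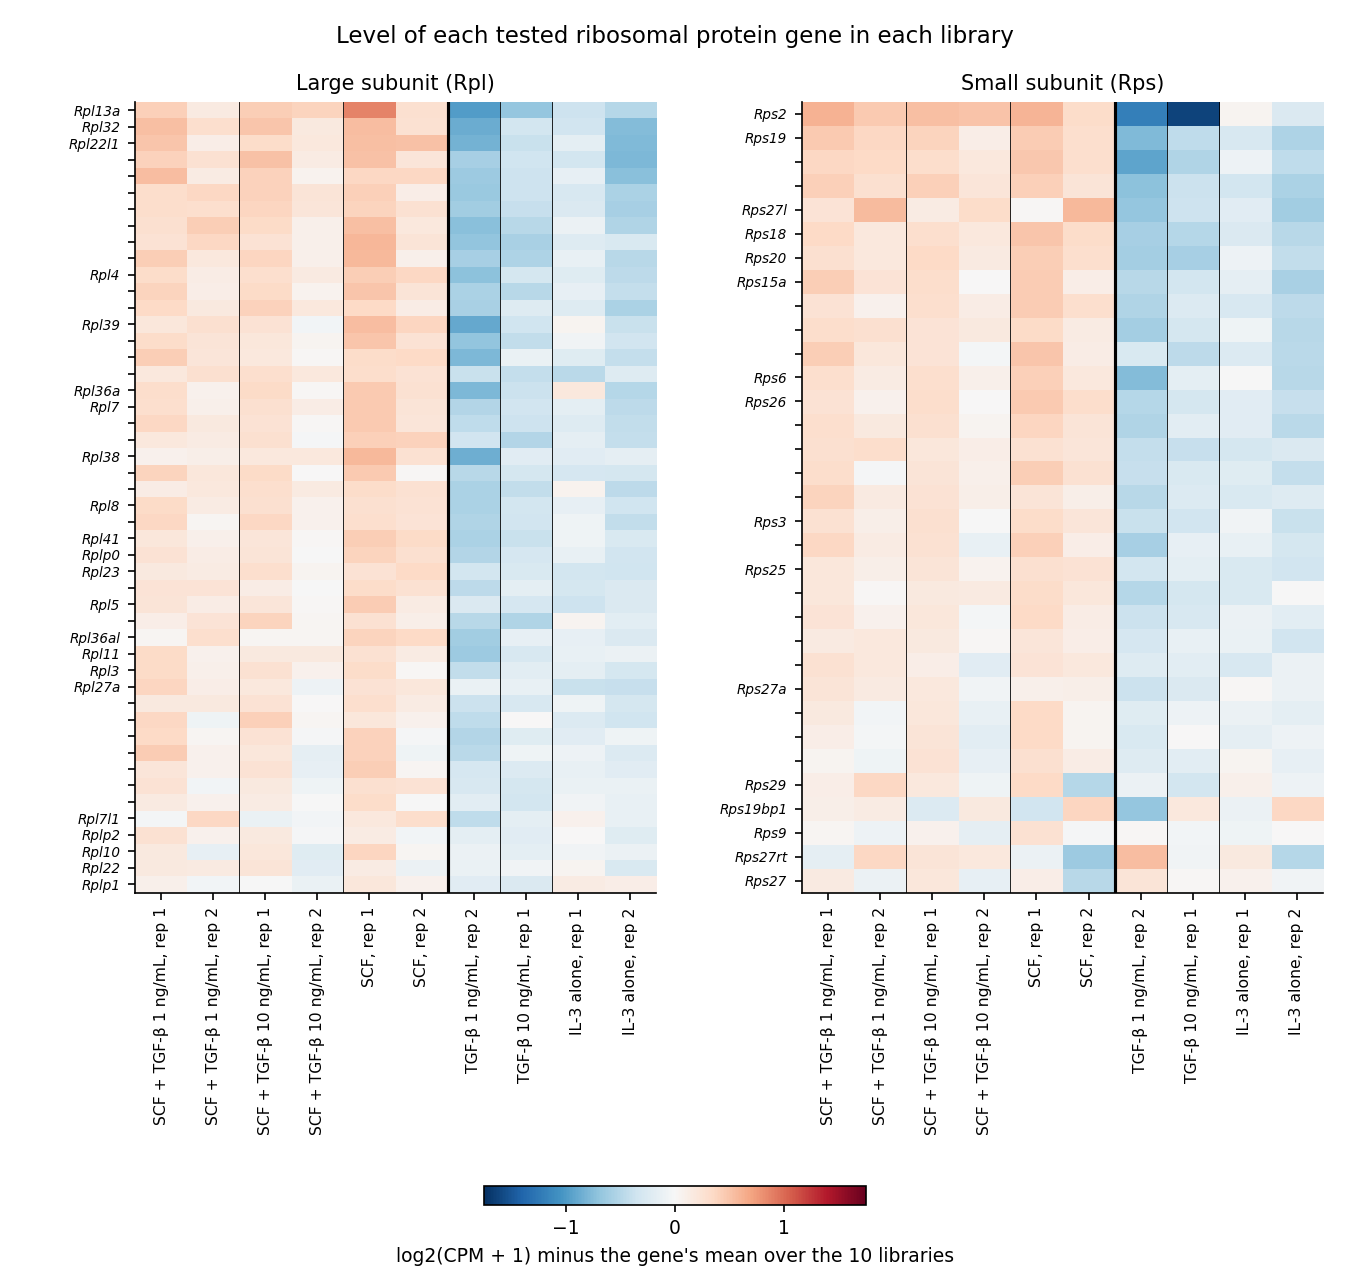
Level of each tested member (rows, Rpl left, Rps right) in each library (columns), as log2(CPM + 1) minus the mean of the gene over all 10 libraries, with rows ordered by the mean over the libraries with SCF minus that over the libraries without; a part of the rows is labelled. Most rows are red in the 6 libraries with SCF and blue in the 4 without, deepest for Rps2 in the 2 TGF-β libraries; Rplp1, Rps9 and Rps27 stand at the bottom.

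TGF-β on top of SCF changed no member past the threshold. With 1 ng/mL TGF-β 0 of 81 members were called (4.64% of all genes), and with 10 ng/mL 0 (8.37% of all genes). The median log2 fold changes against SCF were -0.06 and -0.13, and those of all genes 0.01 and -0.00. Above 0 lay 29 members at 1 ng/mL and 11 at 10 ng/mL, against 5688 and 5616 of the 11247 genes. At an unadjusted p under 0.05, edgeR found 1 and 2 members, against 1822 and 2305 of the 11247 genes. At the same mark limma-voom found 1 and 3 members, and DESeq2 0 at either dose. After adjustment DESeq2 and limma-voom called 0 at either dose. The lowest values past that unadjusted mark were those of Rpl38 at 1 ng/mL (-0.34 ± 0.15) and Rpl39 at 10 ng/mL (-0.35 ± 0.17), with adjusted p of 0.268 and 0.239. In 13 members (16.0%) all 4 libraries with TGF-β lay below both SCF libraries, close to the 15.7% of all genes, and in 0 members above, against 15.4% of all genes. Between the 2 doses 0 members were called (0.0178% of all genes), with 0 at an unadjusted p under 0.05 and 0 by DESeq2 and limma-voom; the median was -0.06.

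TGF-β without SCF, set against IL-3 alone, gave 1 member called lower, Rps2, and 0 higher, where 3.48% of all genes were called. The median of the 81 members was -0.15 (all genes -0.02), and 11 members lay above 0, against 5372 of the 11247 genes. At an unadjusted p under 0.05 edgeR found 10 members, against 1757 of the 11247 genes. Both TGF-β libraries lay below both IL-3 libraries in 24 members (29.6%), against 22.1% of all genes. Among the next members by p was Rplp1 (-0.36 ± 0.13, adjusted p = 0.157).

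Rps2 was the exception among the members. It encodes a protein of the small subunit beside the mRNA entry channel, and the gene (ENSMUSG00000044533) spans chr17:24718116-24721929 on the plus strand of GRCm38. It measured 478 and 432 CPM in SCF with 1 ng/mL TGF-β, 450.0 and 441 CPM in SCF with 10 ng/mL, and 473 and 392 CPM in SCF. Without SCF it measured 136 CPM with 1 ng/mL TGF-β, 101 CPM with 10 ng/mL TGF-β, and 325 and 263 CPM in IL-3 alone. The 2 libraries of TGF-β alone were thus the lowest by far, the IL-3 libraries lay between, and the 6 libraries with SCF overlapped whether or not TGF-β was present. Against IL-3 alone, TGF-β lowered Rps2 by a log2 fold change of -1.33 ± 0.16 (edgeR adjusted p = 0.000107). SCF plus TGF-β against TGF-β alone gave 1.94 ± 0.15 (adjusted p = 2.98e-07), and SCF against IL-3 alone 0.56 ± 0.15 (adjusted p = 0.0259). The change with TGF-β in the presence of SCF minus that in its absence was 1.39 ± 0.21 (adjusted p = 0.00974). Rps2 was the only member called for this interaction, for which 0.293% of all genes were called. The interaction had 1.17 (adjusted p = 0.0819) without the 10 ng/mL TGF-β library and 1.24 (adjusted p = 0.0765) without IL-3 replicate 1. Without the satellite and ribosomal RNA loci it was 1.402 (adjusted p = 0.00812).

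As a share of all ribosomal protein counts Rps2 made up 1.68% to 2.11% in the 6 libraries with SCF. It made up 0.926% with 1 ng/mL TGF-β, 0.614% with 10 ng/mL TGF-β, and 1.77% and 1.63% in IL-3 alone. Relative to the summed counts of the members, its log2 fold change with TGF-β alone was -1.18 ± 0.19 and the interaction 1.34 ± 0.25. Of its exon bases 8.09% are shared with Snhg9 and the small nucleolar RNA Snora64. Its pseudogene rows together had 24 counts over all libraries. Reads that were not uniquely aligned were tallied apart from the gene rows, so this number cannot tell how many reads Rps2 shares with these copies.

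**Figure D4:**
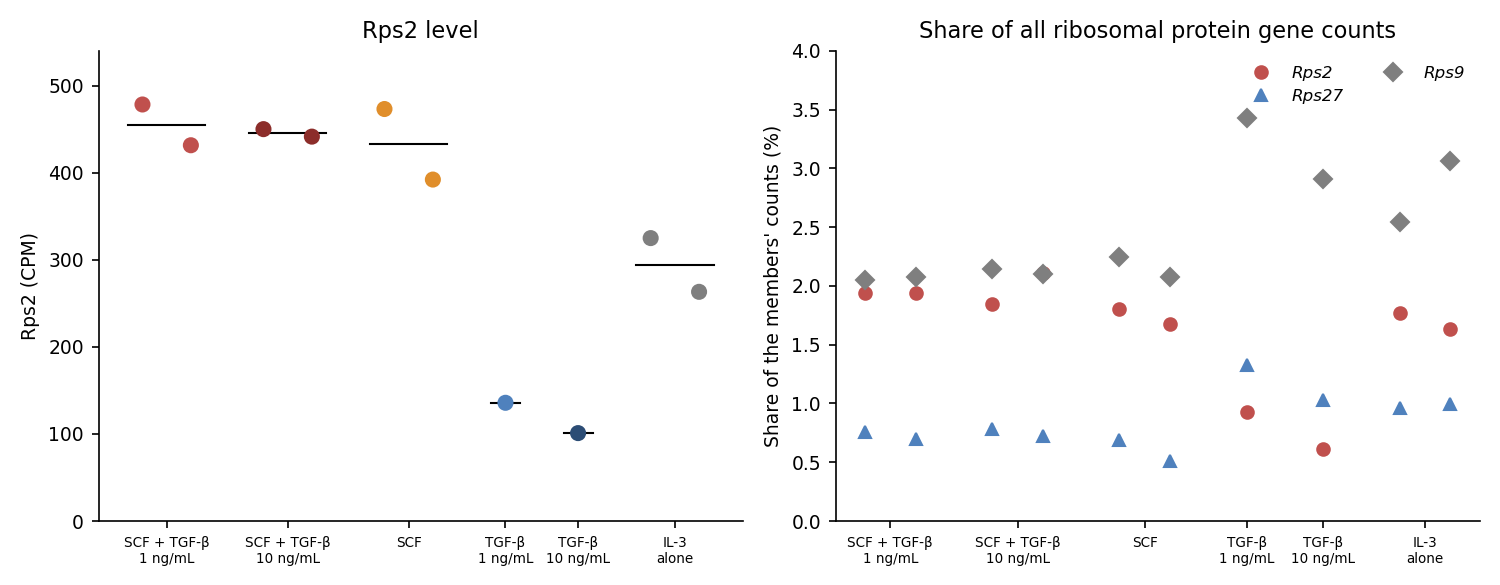
Left, Rps2 in CPM in each library, with a line at each group's mean (1 library in each TGF-β group without SCF). Right, Rps2, Rps27 and Rps9 as a percentage of all ribosomal protein counts; Rps2 drops to 0.926% and 0.614% in the 2 libraries of TGF-β alone, while Rps27 and Rps9 make up more of the total without SCF than with it.

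To see which members moved apart from the set, each gene was tested with the libraries scaled to the summed counts of the members, a scaling chosen after the data were seen. With SCF against IL-3 alone 2 members were lower relative to the set, Rps27 (-0.70 ± 0.20) and Rplp1 (-0.52 ± 0.17), and 0 higher; under this scaling 26.8% of all genes were called. With SCF and TGF-β against TGF-β alone, Rps2 and Rpl32 (0.41 ± 0.16) were among 3 members higher relative to the set, and Rps27 (-0.66 ± 0.17), Rps9 (-0.59 ± 0.15), Rpl10 (-0.43 ± 0.15) and Rplp1 (-0.37 ± 0.15) lower, with 44.1% of all genes called. With TGF-β alone against IL-3 alone Rps2 was the 1 member called (2.73% of all genes), and Rps2 again for the interaction (0.249%). Rps27 made up 0.509% to 0.784% of ribosomal protein counts with SCF and 0.962% to 1.33% without, and Rplp1 2.52% to 2.81% with SCF and 3.16% to 4.18% without. For both genes the 2 ranges do not meet.

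Several members have a paralog, which in some pairs can take the same place in the ribosome. Rpl22l1 and Rpl22 are such a pair, and in mouse Rpl22 is known to hold down Rpl22l1. Rpl22l1 measured 86.1 and 85.1 CPM in SCF, against 52.9 and 34.4 CPM in IL-3 alone (0.95 ± 0.21, adjusted p = 0.00947). It measured 83.8, 64.7, 74.6 and 67.3 CPM in SCF with TGF-β, against 33.1 and 45.1 CPM in TGF-β alone (0.92 ± 0.20, adjusted p = 0.00355). Rpl22 stayed between 104 and 140 CPM with SCF and 98.95 and 123 CPM without, with log2 fold changes of 0.13 ± 0.18 and 0.19 ± 0.16 that were not called. The ratio of their counts was 0.482 to 0.763 with SCF and 0.300 to 0.429 without.

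Rps27l, which is induced by p53 in human cells, and Rps27 showed the same shift. Rps27l measured 138 and 201 CPM in SCF, against 118 and 89.1 CPM in IL-3 alone (0.69 ± 0.20, adjusted p = 0.0359), and rose by 0.84 ± 0.18 with SCF and TGF-β against TGF-β alone. The ratio of Rps27l to Rps27 counts was 0.762 to 1.70 with SCF and 0.435 to 0.671 without; it differed widely within groups, with 0.762 and 1.70 in the 2 SCF libraries. The ratios of Rpl36al to Rpl36a (0.753 to 1.09 with SCF, 0.742 to 1.11 without) and of Rpl7l1 to Rpl7 (0.200 to 0.323 and 0.278 to 0.331) overlapped. Rps27rt, a further copy of Rps27, had 0.0544 to 0.0954 of its counts with SCF and 0.0482 to 0.0870 without. The paralogs Rpl3l, Rpl10l and Rpl39l, known from muscle and testis, had at most 1 count.

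**Figure D5:**
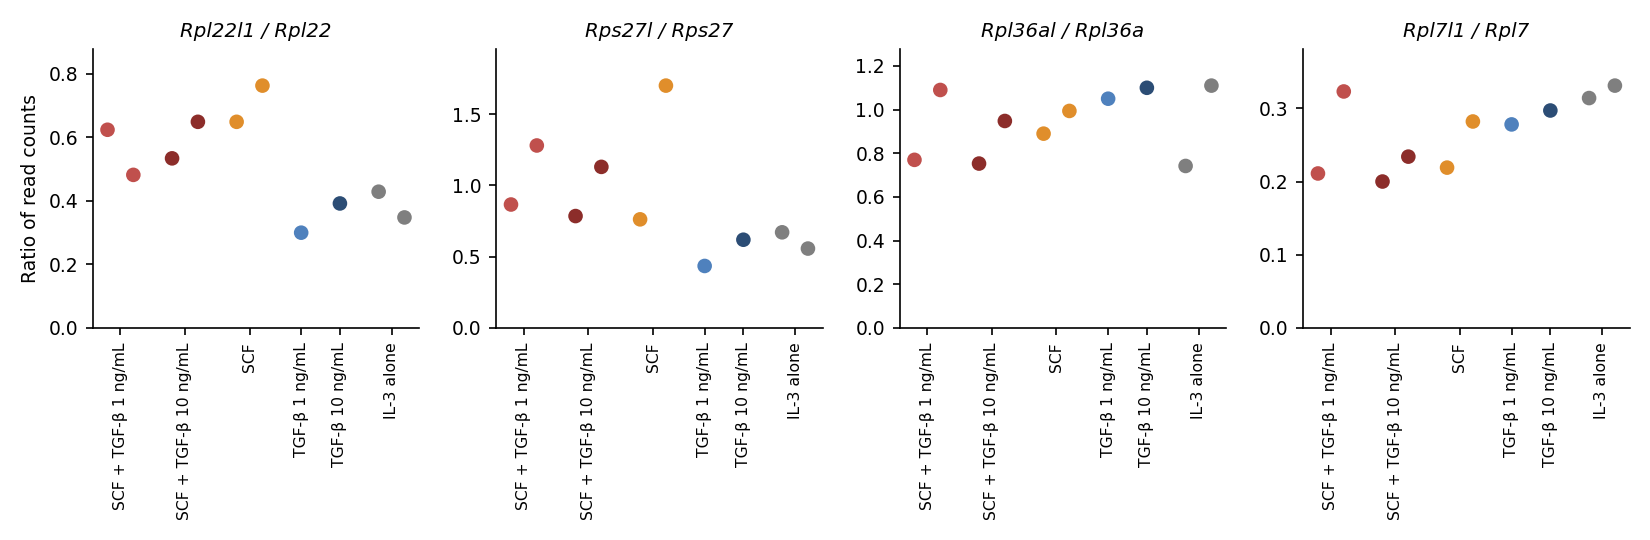
Ratio of read counts of 4 paralogs to their main genes (vertical axes, each from 0) in each library, by group. Rpl22l1 over Rpl22 and Rps27l over Rps27 lie higher in the 6 libraries with SCF than in the 4 without, and the other 2 ratios overlap.

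Other genes of translation were counted from lists chosen with earlier results of these data known. In the list of translation factors, ribosome-bound proteins and other TOP genes, 12 of 20 tested genes rose with SCF against IL-3 alone and 0 fell (median 0.60), that is 60.0% against 5.71% of all genes. With SCF and TGF-β against TGF-β alone 15 rose and 0 fell (median 0.55), 75% against 13.3% of all genes. The first count was 7 without SCF replicate 1 and 3 without IL-3 replicate 2, and the second 6 without the 1 ng/mL TGF-β library. Rack1, a scaffold protein on the small subunit, measured 861 and 909 CPM in SCF, against 509.9 and 394 CPM in IL-3 alone (0.97 ± 0.14, adjusted p = 0.000534), and rose by 1.03 ± 0.13 in the second comparison. The elongation factor genes Eef2 and Eef1a1 rose by 0.81 ± 0.13 and 0.61 ± 0.14 in the first and by 0.58 ± 0.12 and 0.52 ± 0.12 in the second, and Npm1, a nucleolar chaperone, by 0.77 ± 0.14 and 0.67 ± 0.13. Eif3f, of the initiation factor eIF3, rose by 1.33 ± 0.20 in the second comparison and had -0.61 ± 0.22 (adjusted p = 0.165) with TGF-β alone against IL-3 alone. Fau, the source of the ribosomal protein S30, had 0.41 ± 0.16 and 0.27 ± 0.15 and was not called.

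Of the 53 ribosome biogenesis genes 0 were called with SCF against IL-3 alone (median 0.02, 29 above 0; 4 at an unadjusted p under 0.05; 0 by DESeq2 and limma-voom; 1 without SCF replicate 1). Of all 11247 genes, 9.17% were called with SCF against IL-3 alone, and 2623 had an unadjusted p under 0.05 in edgeR. With SCF and TGF-β against TGF-β alone 4 of the biogenesis genes rose (Myc, Bysl, Bop1 and Nop58) and 1 fell (Sbds), with a median of 0.30 and 41 above 0. The share that rose, 7.55%, lay below the 13.3% of all genes, as did the 1.89% that fell below 11.4%. Myc, whose product activates ribosome biogenesis genes, measured 189.9, 181, 199.8 and 191 CPM in SCF with TGF-β, against 92.5 and 94.8 CPM in TGF-β alone (1.02 ± 0.16, adjusted p = 0.000211). It had 0.16 ± 0.17 with SCF against IL-3 alone. The 4 became 7 with no filter, with a replicate block or without SCF with 1 ng/mL TGF-β replicate 1, and 2 by DESeq2's Wald test and without replicate 2 of either SCF with TGF-β group or without either TGF-β library; Sbds was not called without either TGF-β library. With SCF and 10 ng/mL TGF-β against SCF 2 genes were lower, Polr1e (-1.01 ± 0.27) and Bysl (-0.55 ± 0.16). That is 3.77% of the list, against 4.59% of all genes. DESeq2's Wald test called 0 of them. Neither call held without any 1 of the 4 libraries compared, with Polr1e at -1.1 to -0.92 and Bysl at -0.68 to -0.42.

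In the list of mTORC1 and 4E-BP genes, 3 of 27 rose (Tbc1d7, Rps6ka3 and Rps6ka1) and 1 fell with SCF against IL-3 alone, which is 11.1% and 3.70%, against 5.71% and 3.46% of all genes. The one that fell was Eif4ebp2 (-0.998 ± 0.27), an inhibitor of the cap-binding protein. None of these 4 was called by DESeq2's Wald test or when any 1 of the 4 libraries was left out. In the second comparison 4 rose, among them Eif4e (1.12 ± 0.23), the cap-binding protein itself, and 1 fell (Tsc1). The 14.8% that rose was close to the 13.3% of all genes, and the 3.70% that fell lay below 11.4%. All 5 calls were lost without the 1 ng/mL TGF-β library, and that of Tsc1 also without either library of SCF plus TGF-β at 1 ng/mL or replicate 1 of SCF plus TGF-β at 10 ng/mL. Tsc1 was not called either under DESeq2 size factors, TMM scaling without the members, no filter, only the groups compared, removal of the satellite and ribosomal RNA loci or DESeq2's Wald test, which called 2 of the 4 that rose. Rps6ka1, a kinase that can phosphorylate Rps6, fell with SCF and TGF-β against SCF, by 0.77 (SE 0.14) on the log2 scale at 1 ng/mL and by 0.82 (SE 0.14) at 10 ng/mL. At 1 ng/mL 2 of the 27 genes were called lower (7.41%, against 2.75% of all genes) and 0 higher, and the lowest value was -1.87. DESeq2's Wald test and limma-voom called 1 lower there, and leaving out 1 library also reduced the count. At 10 ng/mL 1 was called lower (3.70%, against 4.59% of all genes). The list median was 0.08 in the first comparison and -0.01 in the second.

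Of 10 genes of the p53 response, which free ribosomal proteins can trigger, 3 rose with SCF against IL-3 alone (Ccng1, Mdm2 and Zmat3) and 0 fell, 30.0% against the 5.71% of all genes called higher. Mdm2 measured 139 and 141 CPM in SCF, against 79.3 and 89.8 CPM in IL-3 alone (0.73 ± 0.16), and Ccng1 302 and 342 CPM in SCF, against 172 and 137 CPM in IL-3 alone (1.05 ± 0.16). In the second comparison 5 rose, these 3 with Cdkn1a and Phlda3 (1.91 ± 0.41), 50% against 13.3% of all genes. The 3 became 1 without SCF replicate 2 or IL-3 replicate 1, and the 5 became 3 without the 1 ng/mL TGF-β library. With TGF-β alone against IL-3 alone Cdkn1a fell by 0.70 on the log2 scale (SE 0.13), a call lost without the 10 ng/mL TGF-β library. Mitochondrial ribosomal proteins serve a separate ribosome. Of 77 of their genes 0 were called with SCF against IL-3 alone (median 0.23), against 9.17% of all genes. At an unadjusted p under 0.05 edgeR found 7 of the 77, against 2623 of the 11247 genes. In the second comparison 5 rose and 0 fell (median 0.24), 6.49% against 13.3% of all genes. Those 5 became 0 by DESeq2's Wald test, 3 without replicate 2 of SCF plus TGF-β at 10 ng/mL, 0 without the 1 ng/mL TGF-β library and 2 without the 10 ng/mL TGF-β library.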

How the data were processed

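Bone marrow-derived mast cells were lysed in TCL buffer, and SmartSeq2 cDNA of full length was made into Nextera XT libraries and read from both ends (2 x 38 bases), per the labels' protocols, which name no molecular identifiers. The authors deposited whole-number read counts for each gene. The submitters' processing notes name STAR, HTSeq, DESeq2 and GRCm38 (mm10). Versions, strand setting and annotation release were not given in the sources used here. Rows naming no gene were left out of library sizes; gene rows held 16.4% to 26.6% of all counted reads. Gene counts per library ranged from 1237382 to 2323916, so that 3 counts equal 1.26 to 2.55 CPM.

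Symbols, exon lengths and overlaps came from GENCODE vM21 on GRCm38, promoters from RefSeq. All gene rows were fitted with edgeR 4.0.16 under R 4.3.3 (filterByExpr, TMM factors, 1 mean per group over all 10 libraries, quasi-likelihood F test, 4 residual degrees of freedom, biological coefficient of variation 0.126), with Benjamini-Hochberg adjustment over the 11247 tested genes and a threshold of 0.05. The 2 groups with 1 library take their spread from the others. SE was approximated by dividing the log2 fold change by the root of F. The steps were tested on simulated counts. Lists were described by counts and medians, with no test of a set. The members and lists were chosen with earlier results of these data known. The genes named are subunits of known function, paralog pairs, the largest called changes, the highest and lowest levels and up to 4 called genes per list; a few named for comparison fall outside this. Alternatives were DESeq2 1.42.0 (size factors; Wald test), limma-voom (limma 3.58.1), TMM without the members, other filters, only the groups compared, a replicate block, fits without ribosomal RNA and satellite loci, each library left out, and other totals for the share; scaling to the members' sum and the principal transcript's length were added after the data were seen. Columns were mapped to samples by their titles, and 0 columns were left out. A few members and genes of the lists are counted but not reported singly here.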

Additional observations from a re-analysis of the deposited data

Results flagged for a closer look

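Rps2 differed in its change with TGF-β between cells with and without SCF. The change with TGF-β (mean of both doses) in the presence of SCF minus that in its absence was 1.39 on the log2 scale (SE 0.21; interaction term, edgeR adjusted p = 0.00974). With SCF, Rps2 stood at 432 to 478 CPM in the 4 libraries with TGF-β and at 473 and 392 CPM in the 2 without. Without SCF it stood at 136 and 101 CPM with TGF-β and at 325 and 263 CPM in IL-3 alone. The TGF-β side without SCF had 1 library per dose, and the adjusted p was 0.0819 without the 10 ng/mL library, 0.0327 without the 1 ng/mL library, 0.0765 without IL-3 replicate 1 and 0.0177 without IL-3 replicate 2. DESeq2 and limma-voom gave 1.395 and 1.39, with adjusted p of 6.64e-05 and 0.00546. No group had the 4 libraries that a test for an outlying library needs.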

How the results depend on the processing

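The members' median stayed above 0 in both SCF comparisons under DESeq2 size factors, scaling without the members, other filters, only the groups compared, and with ribosomal RNA and satellite loci removed. Under these, 43 to 45 of the 45 members and 60 of the 60 kept their call, and up to 5 and 1 further members gained one. DESeq2's Wald test called 33 and 54 members and limma-voom 44 and 59 in the 2 SCF comparisons. The share of all genes called is not given here for these tools, for the fits without 1 library or for the replicate block. A changed count of members there may thus reflect all genes tested and not the members alone. Fits without 1 library gave 1 to 40 members higher with SCF against IL-3 alone, 23 to 61 with SCF and TGF-β against TGF-β alone (median 0.47 to 0.70), and 0 to 1 for the interaction. With the replicate number as a block, the fit called 57 and 66 members higher in these comparisons and 3 lower with TGF-β against IL-3 alone (Rps2 and Rplp1 among them) in place of 1. Nothing in the labels says that the numbers pair the samples. Over all tested genes, replicate 1 minus replicate 2 correlated between groups at 0.193 to 0.228 among those with SCF. Between these and IL-3 alone the correlations were -0.00388 to 0.022. Over the members the median of this difference was above 0 in every group with 2 libraries (log2 0.137 to 0.224). Scaled to the members' summed counts, a scaling whose construction removes the shared change, the SCF comparisons had 0 members higher and 2 lower (median 0.035) and 3 higher and 4 lower (median 0.014), and the median with TGF-β against IL-3 alone was 0.0057. Under it these genes turned negative with SCF against IL-3 alone: Rplp1 -0.52, Rplp2 -0.37, Rpl3 -0.11, Rpl10 -0.23, Rpl11 -0.21, Rpl22 -0.39, Rps3 -0.036, Rps9 -0.37, Myc -0.35, Rps27a -0.38 and Fau -0.12. With SCF and TGF-β against TGF-β alone these did: Rplp0 -0.0079, Rplp1 -0.37, Rplp2 -0.26, Rpl3 -0.061, Rpl5 -0.14, Rpl10 -0.43, Rpl22 -0.39, Rpl23 -0.10, Rps3 -0.040, Rps25 -0.17, Rps26 -0.0012, Rps27a -0.12, Rpl27a -0.29, Fau -0.30 and Eef1a1 -0.048. Values near 0 changed sign elsewhere: Rplp1 with SCF against IL-3 alone was -0.0049 under the filter of 10 CPM and -0.0019 in the fit of the groups compared, and Rps9 in the second comparison was 0.015 with no filter. Without 1 library Rplp1 ranged from -0.053 to 0.072, Rpl22 from -0.011 to 0.31, Rps27 from -0.51 to 0.11 and Myc from -0.071 to 0.45 in the first comparison, and Rps9 from -0.083 to 0.035 and Rps27 from -0.19 to 0.015 in the second. Of 71 gene values called, 10 changed sign in an alternative, each under the members' scaling. The mean share, in the order SCF plus TGF-β (1 and 10 ng/mL), SCF, TGF-β (1 and 10 ng/mL) and IL-3 alone, was 3.09%, 3.01%, 3.03%, 2.06%, 2.33% and 2.30% of protein-coding counts, 2.89%, 2.81%, 2.83%, 1.90%, 2.15% and 2.13% without ribosomal RNA and satellite loci, 0.613%, 0.567%, 0.641%, 0.219%, 0.350% and 0.357% of all counted reads, and 1.89%, 1.83%, 1.89%, 1.07%, 1.35% and 1.32% without the 5 most counted members; with pseudogene rows added it was 1.36% and 1.74% in the 2 TGF-β groups. Over single libraries it ranged from 2.31% to 2.52%, 2.16% to 2.52% and 2.26% to 2.57% in the groups with SCF and from 1.49% to 1.82% in IL-3 alone. With the principal transcript's length the spread of levels was 10.5-fold. The 2 groups with 1 library and 4 residual degrees of freedom limit what could be called, and the depth limits Rpl13a, Rps27rt and Rps19bp1 most.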
